A study of Mus musculus with 10 samples.

Results

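Apoptosis regulators and caspases were compared between MLL-AF9 leukaemia cells that carry GFP and CD11b+ myeloid cells without GFP, both sorted from the bone marrow of the same kind of leukaemic mice. The members were all rows of the deposited gene table whose symbol starts with Bcl2, Birc, Casp (without Casp1 and Casp4) or Ripk, together with 20 single genes named by symbol. This gave 32 of the 10141 genes in the table. Of the 20 single genes 14 had an entry. Bak1, Bid, Bad, Bik, Hrk and Pmaip1 had none and were not analysed here.

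Recipient mice of the CD45.1 type received MLL-AF9/GFP cells through the tail vein, and marrow was taken once GFP+ cells made up 2% of peripheral blood. MLL-AF9 is a fusion oncogene that drives acute myeloid leukaemia, GFP marks the cells that carry it, and CD11b is an integrin of maturing myeloid cells. The leukaemia group held 5 libraries of GFP+ cells and the myeloid group 5 libraries of GFP-CD11b+ cells. Both groups came from leukaemic hosts, no marrow of healthy mice and no normal immature cells were analysed here, and the labels name neither the sex or age of the mice nor whether libraries were pooled or came from separate animals. The p-values therefore measure the spread between these libraries, which may be technical. The treatment protocol describes flow sorting of both populations and the design text magnetic selection of CD45.2-negative CD11b+ cells, while the genotype and cell type fields carry the leukaemic entry in all 10 libraries, so the groups rest on the sample titles.

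Apoptosis is decided at the mitochondrial outer membrane, where guardians of the BCL2 family (Bcl2, Bcl2l1, Bcl2l2, Mcl1 and A1) hold back the pore formers Bax and Bak1, and BH3-only proteins such as Bim (Bcl2l11) and Puma (Bbc3) relieve that hold. Cytochrome c released through the pore joins Apaf1 and caspase-9 to activate caspases further down, which inhibitor of apoptosis proteins restrain. Death receptors such as Fas reach the caspases through Fadd and caspase-8. Mature neutrophils are short-lived cells known to depend on Mcl1, and p53 (Trp53) induces several death genes as well as its own inhibitor Mdm2.

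Reads recovered from the table ranged from 24099555 to 30879571 per leukaemia library and from 24712722 to 32247772 per myeloid library. Values are normalised reads, that is reads divided by the size factor of the library, given as mean ± SD over 5 libraries, and log2 differences are leukaemia minus myeloid on the authors' variance-stabilised scale, which understates the change of genes with few reads. The sort marks followed the titles. Hoxa9, a target of the fusion, averaged 3215 ± 329 normalised reads in leukaemia against 16 ± 5.30 in the myeloid group, and Itgam, which encodes CD11b, had 12227 ± 1128 and 97794 ± 13873. All 10 mature neutrophil markers had an entry and summed to between 53605 and 57877 normalised reads in leukaemia and between 2203200 and 3547100 in myeloid libraries. The 8 dendritic cell and MHC class II markers summed to between 1025 and 2407 in leukaemia and between 5854 and 61746 in myeloid libraries, with 5854 and 5942 in myeloid replicates 2 and 4 and at least 40092 in the other 3. B cell markers (6 of 7 with an entry) summed to between 483 and 2249 in myeloid libraries. Monocyte markers (5 of 7) summed to between 40821 and 76646 in leukaemia and between 109470 and 183410 in myeloid libraries. Macrophage markers (5 of 9) had sums between 5546 and 7431 in leukaemia and between 15985 and 32277 in myeloid libraries. Erythroid markers (2 of 7) had between 2.55 and 39.1 and between 11.4 and 198. In myeloid libraries the macrophage, B cell and erythroid sums were lowest in replicates 2 and 4 and highest in replicate 1. So were the dendritic and MHC class II sums. Monocyte sums were lowest in replicates 2 and 4 and highest in replicate 3. In such bulk libraries fewer cells of a type and less RNA per cell cannot be told apart.

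Pro-survival genes were mostly lower in leukaemia and pro-death genes went both ways. Of 32 members 29 passed a filter on low values and were tested with limma, and Bcl2l14, Bcl2l15 and Endog did not. Among the tested members 12 passed as higher, where 49.1% of all tested genes did, and 17 as lower, where 50.7% of all tested genes did (limma, Benjamini-Hochberg adjusted p under 0.05). Of 8079 tested genes 3965 passed as higher and 4097 as lower, so nearly all passed and a call by itself sets no member apart. How the genes of the table were chosen is not given. If they were chosen on this same comparison, the adjusted p-values and medians describe genes already picked as different. A gene without an entry may then be one that did not differ. Of the 32 members 29 had groups that did not overlap (26 of the 29 tested), beside 86.8% of all tested genes. At least 2-fold higher and passing were 5 members, Trp53, Bcl2l12, Fadd, Bcl2a1a and Bcl2, beside 22.4% of all tested genes. At least 2-fold lower and passing were 8 members, among them Mcl1, Birc3, Fas, Bmf, Mdm2, Cflar and Bcl2l1, beside 25.0% of all tested genes. The 10 pro-survival members had a median log2 difference of -0.75 with 3 higher and 7 lower. The 17 pro-death members, of which 16 were tested, had a median of 0.14 with 9 higher and 8 lower. The median was -0.16 over all tested genes and 0.15 over all genes in the table.

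**Figure D1:**
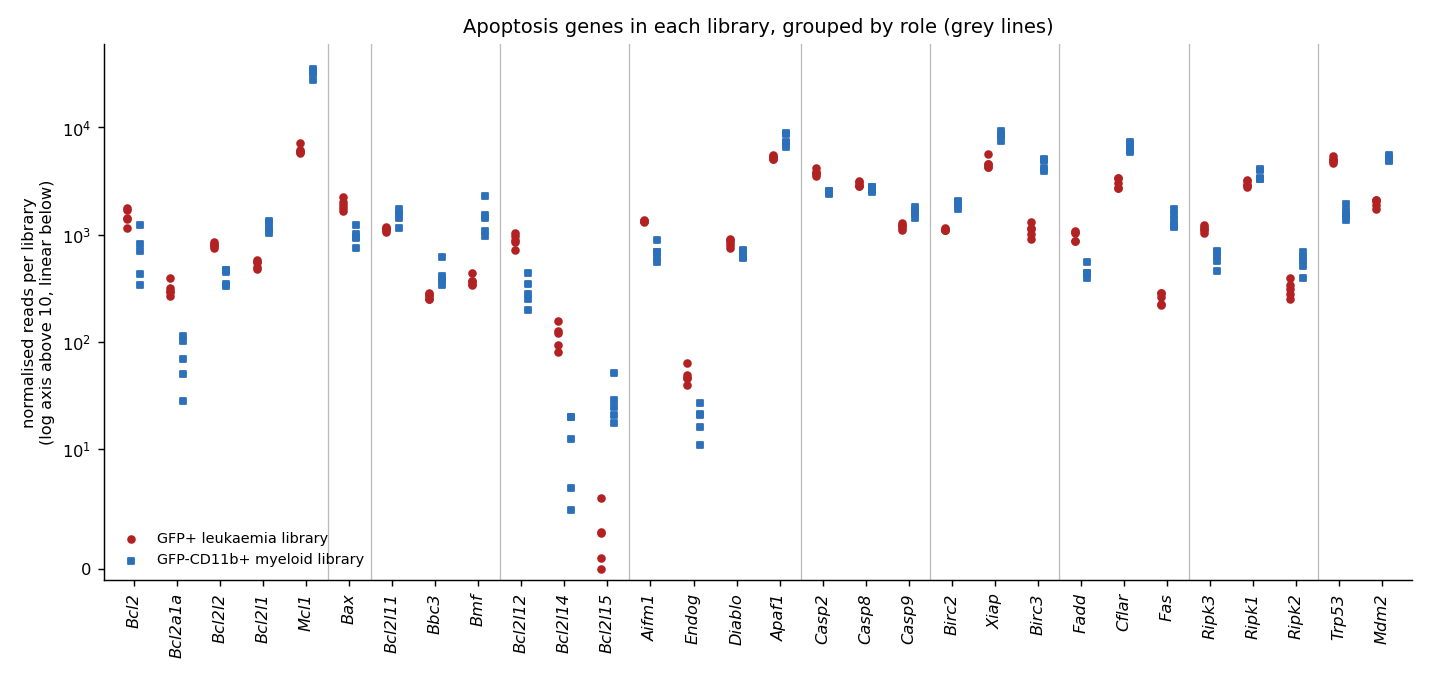
Normalised reads of 30 members in each library (vertical axis, logarithmic above 10), with circles for the 5 GFP+ leukaemia libraries and squares for the 5 GFP-CD11b+ myeloid libraries, grouped by role between grey lines. Mcl1 is the most abundant member in reads and is lower in all 5 leukaemia libraries, and Trp53 and Mdm2 lie in opposite order in the 2 groups.

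**Figure D2:**
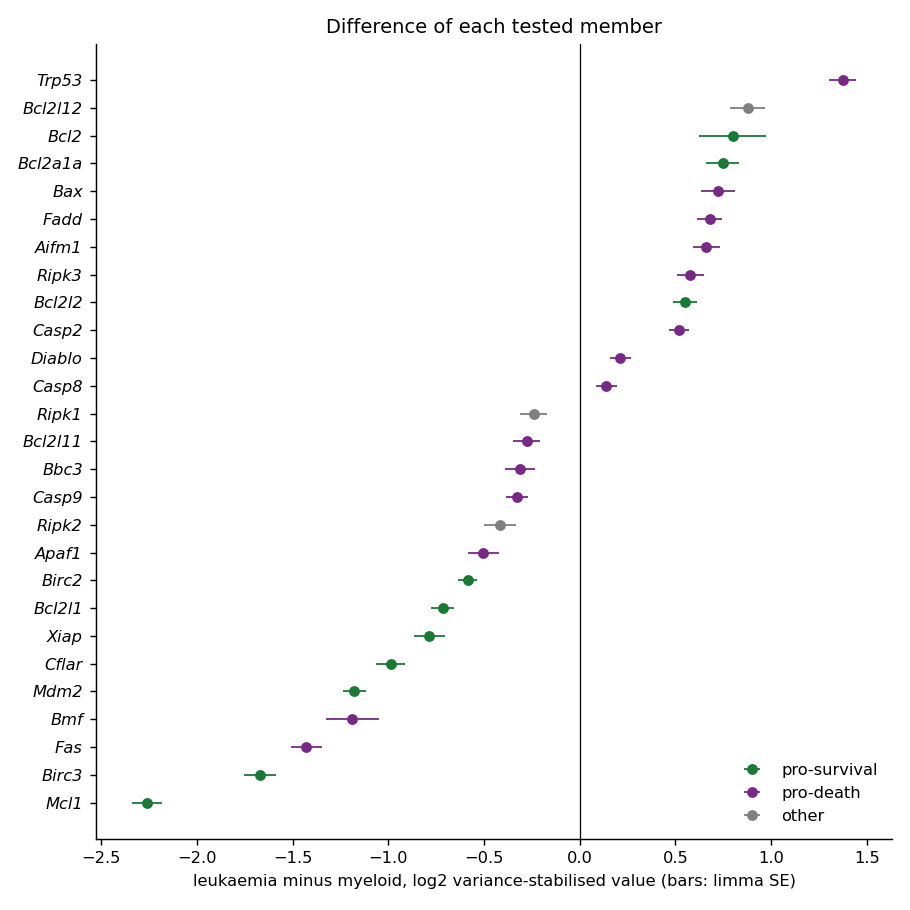
Leukaemia minus myeloid difference of 27 tested members in log2 units (horizontal axis, points with limma standard errors), with pro-survival, pro-death and other members in separate colours. The differences run from -2.26 for Mcl1 to 1.37 for Trp53, and members of both kinds lie on both sides of 0.

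Direction depended on scaling for some members, and not only for those nearest 0. Myeloid libraries summed to 1.56 times the normalised reads of leukaemia libraries over the table. Scaling each library to the total of the table raised the median log2 difference of all tested genes by 0.50, and quantile normalisation raised it by 0.25. Under the total scaling 15 members passed as higher and 10 as lower, and the share of higher among all passing genes was 67.2% in place of 49.2%. Under quantile normalisation 13 members passed as higher and 14 as lower, and 53.4% of all passing genes were higher. Trp53, Bcl2l12, Fadd, Bcl2a1a, Bcl2, Mcl1, Birc3, Fas, Bmf, Mdm2, Cflar and Bcl2l1 each kept direction and call under both scalings. Ripk1, Apaf1, Casp9 and Bcl2l11 did not keep direction under at least 1 of them, as given beside each. Bbc3 and Ripk2 kept direction but lost their call when scaled to the total. Apaf1 changed sign from a log2 difference of -0.50 with the authors' size factors. Casp8 at 0.14 and Diablo at 0.21 kept direction and call under both scalings.

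**Figure D3:**
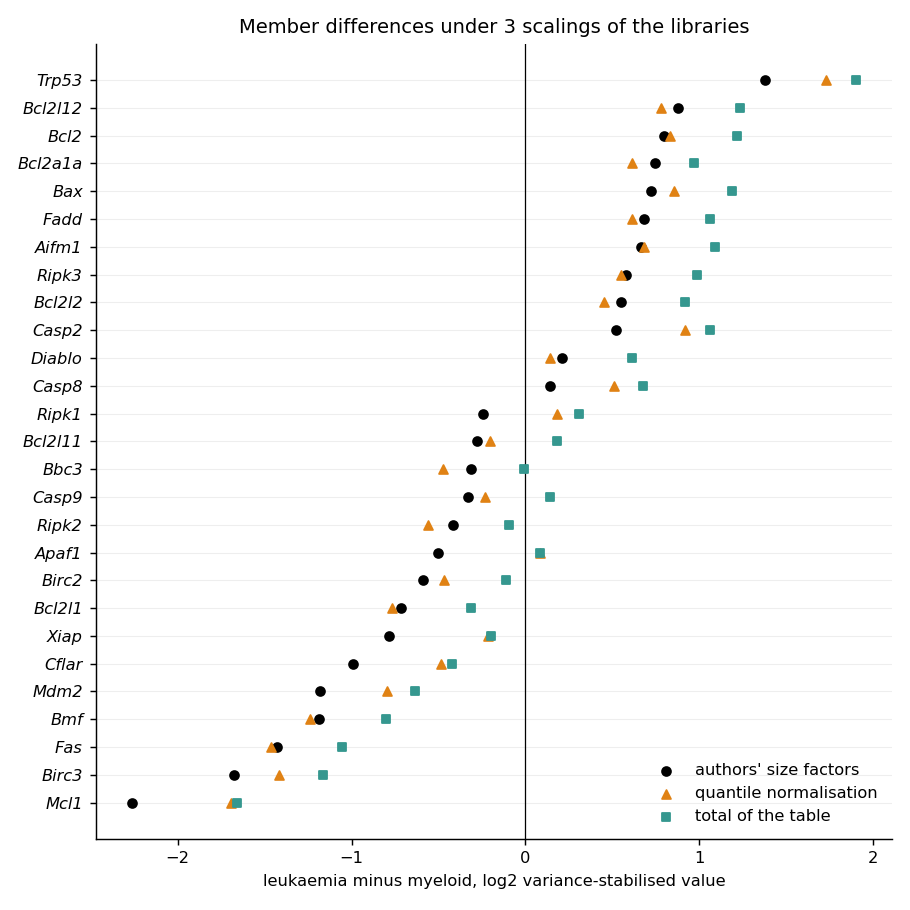
Leukaemia minus myeloid difference of 27 tested members in log2 units (horizontal axis) with the authors' size factors (circles), after quantile normalisation (triangles) and with each library brought to an equal total (squares). Mcl1 lies at -2.26, -1.69 and -1.66 and Trp53 at 1.37, 1.72 and 1.90, while Apaf1, Casp9, Bcl2l11 and Ripk1 change sign when scaled to the total.

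Among the guardians, Mcl1 was lower and Bcl2, Bcl2a1a and Bcl2l2 were higher in leukaemia. Mcl1, which encodes a labile guardian with a short half-life, had 7111, 6163, 5945, 6093 and 5844 normalised reads in leukaemia replicates 1 to 5 and 32537, 33277, 34923, 27534 and 32196 in the myeloid replicates. The highest leukaemia library lay far below the lowest myeloid library. The means were 6231 ± 507 and 32093 ± 2757, a 5.15-fold decrease (SD, n = 5 per group) with a limma log2 difference of -2.26 (SE 0.0786, adjusted p = 3.01e-11). Bcl2l1, the gene of BCL-XL, was 2.19-fold lower (log2 difference -0.72, limma adjusted p = 1.38e-07), with 500, 554, 482, 580 and 563 against 1098, 1292, 1109, 1032 and 1334 normalised reads. No leukaemia library reached the myeloid range.

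Bcl2, the founding guardian and the target of the drug venetoclax, had 1716, 1411, 1795, 1165 and 1427 normalised reads in leukaemia and 1235, 427, 816, 339 and 709 in myeloid replicates 1 to 5. The groups overlapped, since myeloid replicate 1 lay above leukaemia replicate 4. The means of 1503 ± 254 and 705 ± 355 differed 2.13-fold (limma log2 difference 0.80, SE 0.176, adjusted p = 0.000775). The myeloid libraries differed 3.64-fold among themselves. The lowest, replicates 2 and 4, had the lowest sums of dendritic and MHC class II, macrophage, B cell, erythroid and monocyte markers. They also had the highest sums of neutrophil markers (3547100 and 2949700). Replicate 1 had the highest sums of dendritic and MHC class II, macrophage, B cell and erythroid markers. The part of these cells in the Bcl2 value was not tested. Without myeloid replicates 2 and 4 the log2 difference was 0.51 and still passed.

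**Figure D4:**
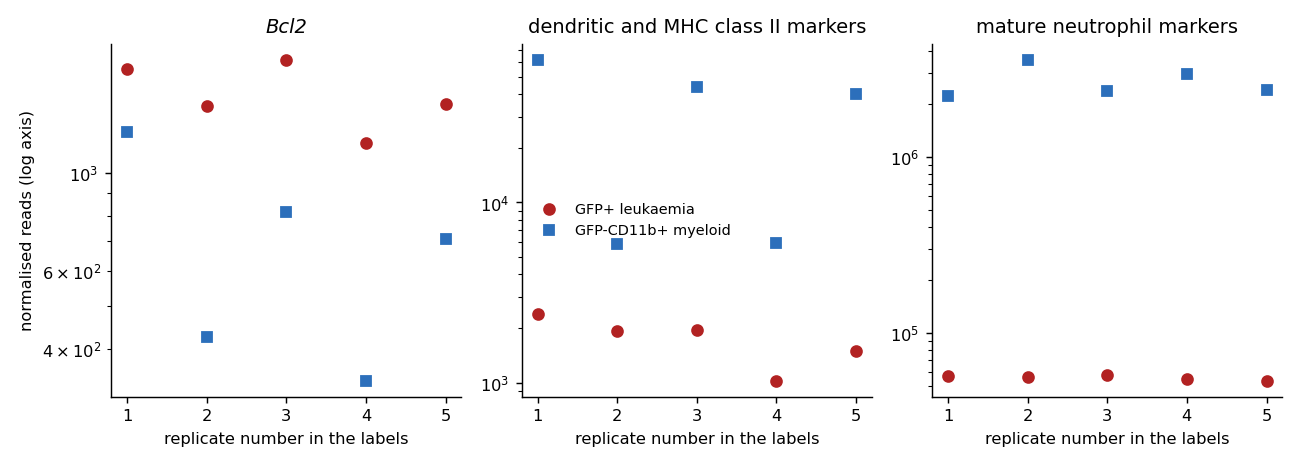
Normalised reads (logarithmic vertical axes) of Bcl2, of the sum of 8 dendritic cell and MHC class II markers and of the sum of 10 mature neutrophil markers, by replicate number, with circles for leukaemia and squares for myeloid libraries. Myeloid replicates 2 and 4 are lowest in Bcl2 (427 and 339) and in the dendritic and MHC class II sum (5854 and 5942), and highest in the neutrophil sum.

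Bcl2a1a, one copy of the A1 guardian, was 4.36-fold higher, with 295, 400, 270, 316 and 301 normalised reads in leukaemia and 113, 28.4, 101, 50.5 and 69.3 in myeloid libraries (limma log2 difference 0.75, adjusted p = 2.09e-06). The lowest leukaemia library lay above the highest myeloid one. Its myeloid values differed 3.99-fold and, like those of Bcl2, were lowest in replicates 2 and 4 and highest in replicate 1. So were the dendritic and MHC class II, macrophage, B cell and erythroid sums, whose part in this value was not tested. The mouse A1 genes are near-identical copies, Bcl2a1b, Bcl2a1c and Bcl2a1d had no entry, and the handling of reads that fit several copies is not given in the sources used here. The Bcl2a1a value is therefore uncertain. Bcl2l2, the gene of BCL-W, was 1.93-fold higher (801 ± 39.3 against 416 ± 67.3 normalised reads, log2 difference 0.55, limma adjusted p = 1.92e-06). A readthrough gene model shares 13.3% of its exon bases.

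Per kilobase of exon Mcl1 was the highest of the 5 guardians with an entry in both groups. It had 1823 ± 148 normalised reads per kilobase in leukaemia, followed by Bcl2a1a at 386 ± 60.3, Bcl2l2 at 179 ± 8.80, Bcl2 at 164 ± 27.8 and Bcl2l1 at 117 ± 9.24. In myeloid cells Mcl1 had 9390 ± 807, followed by Bcl2l1 at 256 ± 28.8, Bcl2l2 at 93.1 ± 15.1, Bcl2a1a at 88.5 ± 42.8 and Bcl2 at 77.0 ± 38.8. Bcl2l2 and Bcl2 in leukaemia, and the last 3 in myeloid cells, did not differ beyond their spread. Exon length was the union of exons in GENCODE M21, which may not be the authors' annotation. As a share of the summed reads per kilobase of these 5 genes, which does not depend on the scaling of a library, Mcl1 took 68.2% ± 2.17 in leukaemia and 94.8% ± 0.504 in myeloid cells. Its share was between 65.7% and 71.6% in the leukaemia libraries and between 94.2% and 95.4% in the myeloid libraries. Bcl2a1a took 14.5% ± 2.11 against 0.886% ± 0.396, and Bcl2 took 6.15% ± 1.02 against 0.767% ± 0.364. Bcl2l2 took 6.75% ± 0.649 against 0.951% ± 0.207. Bcl2l1 took 4.39% ± 0.481 against 2.59% ± 0.276, a higher share in leukaemia although its normalised reads were lower. The ranges did not overlap for any of the 5 genes, and since shares sum to a fixed total, a lower share of Mcl1 raises the others. A1 enters the ranking and the shares through Bcl2a1a alone, whose value is uncertain, since its near-identical copies had no entry. All 5 shares carry that limit.

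The promoters of 3 pro-survival members that were lower together, Mcl1, Birc2 and Mdm2, hold the letters CCGGAAG, the core bound by ETS factors. They are shown because ETS factors act widely in blood cells, and are the 250 bases before the annotated start in RefSeq on GRCm38.p6, 5′ to 3′ on the strand of the gene, with the match on either strand in capitals. The positions are chr3:95658471-95658720 on the plus strand for Mcl1, chr9:7836807-7837056 on the minus strand for Birc2 and chr10:117710759-117711008 on the minus strand for Mdm2.
Mcl1: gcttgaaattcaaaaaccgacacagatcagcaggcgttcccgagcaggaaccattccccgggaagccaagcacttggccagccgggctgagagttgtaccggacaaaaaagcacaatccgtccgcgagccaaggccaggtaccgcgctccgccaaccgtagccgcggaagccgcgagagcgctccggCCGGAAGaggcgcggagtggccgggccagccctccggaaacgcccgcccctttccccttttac
Birc2: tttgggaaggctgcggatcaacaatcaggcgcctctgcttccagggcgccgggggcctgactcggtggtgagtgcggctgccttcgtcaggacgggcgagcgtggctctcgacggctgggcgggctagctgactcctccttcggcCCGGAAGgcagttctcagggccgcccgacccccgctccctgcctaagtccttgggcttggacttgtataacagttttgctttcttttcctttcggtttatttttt
Mdm2: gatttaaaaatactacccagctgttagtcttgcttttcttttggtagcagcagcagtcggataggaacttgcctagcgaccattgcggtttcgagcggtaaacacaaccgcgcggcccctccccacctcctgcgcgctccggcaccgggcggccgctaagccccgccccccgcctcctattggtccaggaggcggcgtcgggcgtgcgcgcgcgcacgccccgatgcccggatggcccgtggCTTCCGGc

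Promoters were found for 29 of the 32 members, and CCGGAAG on either strand was in 5 of these 29 genes (Mcl1, Birc2, Mdm2, Bcl2l11 and Ripk1) and in 17.7% of the 6512 tested genes with a promoter. All 5 had log2 differences below 0 with the authors' size factors, but among all tested genes the letters were in 19.3% of higher and 16.2% of lower genes, and Bcl2l11 and Ripk1 changed sign after scaling to the table total. Over all 32851 promoter windows the share was 6.91%, which counts windows and not genes and so cannot be set against 17.7%. The E-box CACGTG was in 4 of the 29 (Bax, Bbc3, Fas and Ripk3) and 10.6% of tested genes, and the GC box GGGCGG in 19 and 65.2%. A kappa B form was in 4 (Mcl1, Bcl2l1, Bcl2l11 and Bbc3) and 5.64% of tested genes, a cAMP response element in 1 and 3.16%, and a C/EBP palindrome in 0 and 0.322%. These matches are letters in a window, not sites of binding.

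Bax, the pore former with an entry, was higher and the BH3-only genes were lower. Bax had 1671, 2255, 1780, 1897 and 2025 normalised reads in leukaemia and 1223, 957, 934, 756 and 1015 in myeloid libraries, a 1.97-fold difference (limma log2 difference 0.72, adjusted p = 3.5e-06) with no overlap between the groups. Exons of another gene share 12.2% of the exon bases of Bax. Bmf, a BH3-only gene linked to the cytoskeleton and to loss of adhesion, was 3.92-fold lower, with 441, 370, 367, 342 and 345 against 2308, 979, 1519, 1075 and 1435 (limma log2 difference -1.19, adjusted p = 2.71e-06). Every myeloid library exceeded every leukaemia library, and myeloid replicate 1 was the highest and replicates 2 and 4 the lowest. The same held in the dendritic and MHC class II, macrophage, B cell and erythroid sums, whose part was not tested. Bbc3, the gene of Puma, was 1.60-fold lower (268 ± 15.5 against 428 ± 112, limma adjusted p = 0.00197), and after scaling to the table total its log2 difference was -0.01 and did not pass. Myeloid replicate 1, with 624, was also the highest for Bbc3. Bcl2l11, the gene of Bim, was 1.31-fold lower (1134 ± 45.8 against 1487 ± 211, limma adjusted p = 0.00232), its groups overlapped, and its log2 difference turned to 0.18 when scaled to the total.

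Of the BCL2-like genes with less settled roles, Bcl2l12 was higher in leukaemia. It had 857, 887, 726, 966 and 1044 normalised reads in leukaemia and 345, 437, 283, 201 and 254 in myeloid libraries, a 2.95-fold difference with no overlap (limma log2 difference 0.88, adjusted p = 1.02e-06). Exons of Irf3 and of a predicted gene share 33.4% of its exon bases. Bcl2l14 and Bcl2l15 lay below the filter and were not tested. Bcl2l14 had between 81.3 and 156 normalised reads in leukaemia and between 4.88 and 20.1 in myeloid libraries. Bcl2l15 had between 0 and 5.94 in leukaemia and between 17.7 and 51.3 in myeloid libraries, the former from 16 reads in all. Exons of other genes share 14.1% of the exon bases of Bcl2l14 and 21.0% of those of Bcl2l15.

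Aifm1 and Diablo, genes of proteins released from mitochondria, were higher in leukaemia. Aifm1, which encodes apoptosis-inducing factor, was 1.96-fold higher (1348 ± 21.2 against 687 ± 129 normalised reads, log2 difference 0.66, limma adjusted p = 1.04e-06). Its leukaemia libraries lay between 1320 and 1379, the narrowest range of any member relative to its level. Diablo, which encodes Smac, an antagonist of the inhibitor of apoptosis proteins, was 1.26-fold higher (841 ± 62.9 against 665 ± 49.7, limma adjusted p = 0.00192), and exons of other genes share 40.9% of its exon bases. Endog, a mitochondrial nuclease gene below the filter, had between 39.9 and 64.3 in leukaemia and between 10.9 and 27.2 in myeloid libraries. Exons of Spout1 share 35.7% of the exon bases of Endog. Apaf1, the scaffold of the apoptosome, was 1.47-fold lower (5268 ± 210 against 7744 ± 983, limma adjusted p = 4.38e-05), and its log2 difference turned to 0.08 after quantile normalisation and when scaled to the total, without passing.

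Among the initiator caspases Casp2 and Casp8 were higher and Casp9 was lower. Casp2 was 1.53-fold higher (3807 ± 230 against 2492 ± 69.4, log2 difference 0.52, limma adjusted p = 6.73e-07). Casp8, the initiator below death receptors, had 3153, 3133, 2896, 2863 and 2839 in leukaemia and 2639, 2774, 2809, 2488 and 2567 in myeloid libraries. The groups did not overlap, but the difference was 1.12-fold (limma log2 difference 0.14, adjusted p = 0.0234) and did not pass without leukaemia replicate 1 (adjusted p = 0.0558), leukaemia replicate 2 (0.0581) or myeloid replicate 5 (0.0536).

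Casp9, the initiator of the apoptosome, had 1198, 1290, 1114, 1244 and 1148 normalised reads in leukaemia and 1604, 1795, 1635, 1713 and 1421 in myeloid libraries. It was 1.36-fold lower with no overlap (limma adjusted p = 0.00012), but turned to a passing log2 difference of 0.14 after scaling to the table total (limma adjusted p = 0.017).

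All 3 inhibitor of apoptosis genes with an entry were lower. Birc3, the gene of cIAP2 and a textbook target of NF-kappa B, had 1312, 1121, 1153, 904 and 1010 normalised reads in leukaemia and 5004, 4176, 5032, 3965 and 4977 in myeloid libraries. The 4.21-fold decrease left no overlap (limma log2 difference -1.67, SE 0.0844, adjusted p = 7.97e-10). Birc2, the gene of its relative cIAP1, was 1.73-fold lower (1121 ± 23.6 against 1935 ± 120, limma adjusted p = 1.02e-07). Xiap, the direct inhibitor of caspases, was 1.81-fold lower (4679 ± 596 against 8447 ± 664, limma adjusted p = 9.46e-07). After total scaling the log2 differences of Birc2 and Xiap were still below 0, at -0.11 and -0.20, and passed.

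In the death receptor arm the receptor and its brake were lower and the adaptor was higher. Fas had 286, 284, 260, 228 and 221 normalised reads in leukaemia and 1385, 1529, 1178, 1745 and 1207 in myeloid libraries, a 5.51-fold decrease with no overlap (limma log2 difference -1.43, adjusted p = 1.91e-09). Cflar, which encodes c-FLIP, a catalytically inactive relative of caspase-8, had 3378, 2738, 3368, 2758 and 3048 against 5944, 6108, 6672, 7315 and 6980. It was 2.16-fold lower (limma log2 difference -0.99, adjusted p = 4.47e-08), again with no overlap. Fadd, the adaptor, had 871, 1033, 878, 1086 and 1061 against 444, 553, 440, 397 and 427, and was 2.18-fold higher with no overlap (limma log2 difference 0.68, adjusted p = 3.73e-07).

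The RIP kinase genes differed in direction. Ripk3, the kinase that triggers necroptosis, was 1.85-fold higher (1135 ± 72.8 against 614 ± 99.5 normalised reads, log2 difference 0.58, limma adjusted p = 3.41e-06). Ripk2, which signals below NOD receptors, was 1.77-fold lower (317 ± 54.4 against 559 ± 112, limma adjusted p = 0.000356) and did not pass when scaled to the total (log2 difference -0.09). Ripk1, which signals below TNF receptors, was 1.22-fold lower (2993 ± 195 against 3647 ± 392, limma adjusted p = 0.00529). Its log2 difference was 0.18 after quantile normalisation and 0.31 when scaled to the total, and passed as higher in both.

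Trp53 and Mdm2 differed in opposite directions. Trp53, the gene of p53, had 4628, 4846, 4964, 5052 and 5382 normalised reads in leukaemia and 1652, 1934, 1386, 1495 and 1544 in myeloid libraries. It was 3.10-fold higher (limma log2 difference 1.37, SE 0.0707, adjusted p = 9.53e-10), and the lowest leukaemia library lay far above the highest myeloid one. Mdm2, which encodes the ubiquitin ligase that degrades p53, had 2063, 1722, 2095, 1906 and 2099 against 4877, 4954, 5237, 5524 and 5124. It was 2.60-fold lower with no overlap (limma log2 difference -1.18, SE 0.0603, adjusted p = 9.06e-10).

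Ratios of paired member genes within a library do not depend on its size factor. Most pairs set an inhibitor against its target, whereas Mcl1 to Bcl2 and Bcl2 to Bcl2l1 set guardians against each other. They were taken as log2 ratios of reads with 0.5 added. Only the difference between groups is of use, since the genes differ in length. Of 10 pairs set, 8 had both genes in the table, and in 6 of these 8 the ratios did not overlap between the groups, beside 75.6% of all pairs of tested genes. Mdm2 to Trp53 was -1.33 ± 0.130 in leukaemia and 1.69 ± 0.234 in myeloid cells, a factor of 8.13 lower. Mcl1 to Bcl2 was 2.07 ± 0.236 and 5.65 ± 0.674, a factor of 12 lower. The Mdm2 and Mcl1 ratios thus lay apart by more than any spread among libraries.

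Bcl2 relative to the BH3-only gene Bcl2l11 was 0.39 ± 0.220 in leukaemia and -1.21 ± 0.649 in myeloid cells, a factor of 3.04 higher. Bcl2 relative to Bcl2l1 was 1.47 ± 0.362 and -0.88 ± 0.763, a factor of 5.10 higher. Bcl2 relative to Bax was -0.37 ± 0.366 and -0.60 ± 0.541, and the groups overlapped. Both genes of that last pair were higher in leukaemia, and the difference of 0.24 in their log2 ratio turned to -0.13 without myeloid replicates 2 and 4. Leukaemia replicates 2 and 4 also had the lowest ratios of their group (-0.68 and -0.70) and were kept in that value. Cflar relative to Casp8 was 0.03 ± 0.160 in leukaemia and 1.31 ± 0.181 in myeloid cells, a factor of 2.42 lower. Xiap relative to Diablo was 2.47 ± 0.137 and 3.67 ± 0.199, a factor of 2.29 lower. Casp9 relative to Xiap was -1.96 ± 0.193 and -2.37 ± 0.151, with overlapping ranges.

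**Figure D5:**
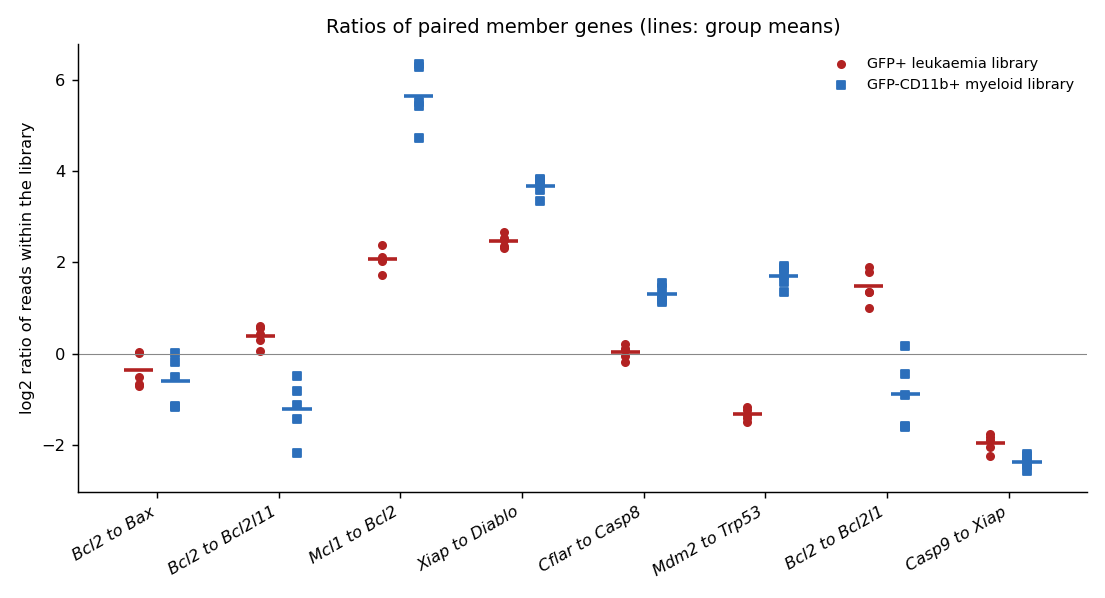
Log2 ratio of reads of 2 member genes within each library (vertical axis) for the 8 pairs with both genes in the table, with circles for leukaemia libraries, squares for myeloid libraries and lines for group means. Mcl1 to Bcl2, Mdm2 to Trp53, Cflar to Casp8 and Xiap to Diablo are lower in every leukaemia library, while Bcl2 to Bax and Casp9 to Xiap overlap between the groups.

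Other genes of the p53 pathway went both ways. For the passing counts in these further lists, the background is again that 49.1% of all tested genes passed as higher and 50.7% as lower. The median log2 difference was -0.16 over tested genes and 0.15 over all genes in the table. Of 22 listed p53 targets, members left aside, 16 had an entry and 13 were tested, with 7 passing as higher and 6 as lower, shares near that background. Aen, an apoptosis-enhancing nuclease gene, was 3.79-fold higher (1447 ± 69.3 against 381 ± 111 normalised reads) and Tigar, a fructose bisphosphatase gene, was 3.73-fold higher. Trp53inp1, a stress-induced cofactor of p53, was 11.9-fold lower (1180 ± 229 against 14014 ± 3421). Btg2, an antiproliferative gene, was 9.26-fold lower (1652 ± 1003 against 15288 ± 7179). Among the myeloid libraries Btg2 was lowest in replicates 2 and 4 and highest in replicate 1. The dendritic and MHC class II, macrophage, B cell and erythroid sums were lowest and highest in the same replicates, and their part was not tested. The median log2 difference of the 16 targets with an entry, tested or not, was 0.02. Of 11 regulators of p53 and damage kinases 10 were tested, with 5 passing as higher and 5 as lower, again near it. After scaling to the table total these were 7 higher and 2 lower, with Usp7 and Ppm1d turning to higher. Under that scaling 4620 of 8079 tested genes passed as higher and 2260 as lower.

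The damage kinase genes Atm (3.41-fold) and Chek1 (3.16-fold) were higher in leukaemia. Rchy1 (3.25-fold) and Cop1 (2.54-fold), which like Mdm2 encode ubiquitin ligases of p53, were lower. Cdkn2a, the locus of the Mdm2 inhibitor Arf and of Ink4a, was chosen after its values were seen. It was not tested, since its mean fell short of the filter. Leukaemia libraries averaged 126 ± 28.9 normalised reads, and among the myeloid libraries only replicate 4 had any, a total of 8.

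Of 18 genes of death receptors, ligands and TNF signalling 14 were tested, with 2 higher and 12 lower and a median log2 difference of -0.72 over the 16 with an entry, where 50.7% of all tested genes passed as lower. With each library scaled to its total there were 4 higher and 6 lower, beside 4620 and 2260 of all 8079 tested genes. The TNF receptor genes Tnfrsf1a (2.66-fold) and Tnfrsf1b (2.80-fold) were lower, and Rbck1, a subunit gene of the linear ubiquitin ligase, was 1.36-fold higher. Tnfrsf1b had 3445 ± 503 normalised reads in leukaemia against 9655 ± 3660. Its myeloid values were lowest in replicates 2 and 4 and highest in replicate 1. So were the dendritic and MHC class II, macrophage, B cell and erythroid sums, whose part was not tested. Fasl, the ligand of Fas, was also chosen after its values were seen, with 0 reads in each leukaemia library and 133, 61, 66, 32 and 48 reads in the myeloid libraries. Among 5 necroptosis and pyroptosis executor genes 2 were higher and 3 lower. Mlkl, the membrane-breaking target of Ripk3, was 2.10-fold higher (1699 ± 212 against 809 ± 165) and Pgam5, a mitochondrial phosphatase gene, 2.61-fold higher. Gsdme, a pore-forming gasdermin gene, was 11.9-fold lower (477 ± 18.4 against 5666 ± 641). Gsdmd, the gasdermin of the inflammasome, was 1.42-fold lower and did not pass under either other scaling.

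Of 13 tested mitochondrial genes outside the member list 8 passed as higher and 5 as lower, where 49.1% and 50.7% of all tested genes did. Cycs, the cytochrome c gene, was 1.64-fold higher (4476 ± 127 against 2722 ± 203 normalised reads) and Bnip1 2.11-fold higher, whereas the mitophagy receptor gene Bnip3l was 2.96-fold and the fission factor gene Mff 2.26-fold lower. Of 7 tested genes of caspase substrates and apoptotic nucleases 4 were higher and 2 lower. Parp1, a repair enzyme gene, was 2.74-fold and the lysosomal nuclease gene Dnase2a 3.07-fold higher, and the kinase genes Rock1 (3.72-fold) and Pak2 (2.51-fold) were lower. Of 14 tested survival kinase, FOXO, STAT and NF-kappa B genes 12 were lower and 1 higher, with a median log2 difference of -0.91, where 50.7% of all tested genes passed as lower and their median was -0.16. Pim1, a kinase gene induced by cytokines, was 8.08-fold lower (790 ± 244 against 6385 ± 1658) and Stat5a, a transcription factor gene, 1.29-fold higher. Pim1 was also lowest in myeloid replicates 2 and 4 and highest in replicate 1. So were the dendritic and MHC class II, macrophage, B cell and erythroid sums, whose part was not tested. Nfkb1 and Akt1 of this list were below 0 with the authors' size factors. Nfkb1 passed as higher after quantile normalisation (log2 difference 0.31) and when scaled to the total (0.33). Akt1 had 0.03 and 0.05 there and passed under neither.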

How the data were processed

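RNA sequencing of 5 leukaemia and 5 myeloid libraries was deposited as 1 table of log2 variance-stabilised counts, which the authors normalised before deposit. HISAT2 (versions 2.0.4 and 2.2.1) and DESeq2 are named in the submitters' processing notes. Build, annotation, read counter and strand setting are not given in the sources used here. Overlapping genes cannot be told apart. All libraries shared the lowest value, 8.1823, taken as 0 reads. The parametric form of the transformation was assumed and inverted, and low values (up to 300 reads, tolerance 0.1 read) then fell on whole reads in 100.0% of cases in each library. The table holds part of the genes, and their selection is not given.

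The values were fitted with limma 3.58.1 (R 4.3.3) with a trended prior, two-sided and without a block. The fit covered 8079 genes whose mean lay over 1 unit above the lowest value (145.2 normalised reads), with Benjamini-Hochberg adjustment at 0.05. It was also run on simulated reads in which few genes changed, in both directions, and the size factors were known. Such reads cannot check the scaling of these data, where nearly all tested genes passed. Some genes are not reported here but are part of the counts. Folds are ratios of mean normalised reads. Values in each library were given for passing members of at least 2-fold and for a set of central members. From each further gene list at most the 2 highest and 2 lowest passing genes without overlap were named. Members, lists, pairs and alternatives were chosen with earlier results of these data known, and the promoter motifs after the values were seen. Alternatives were 2 other scalings, voom on recovered reads, 2 filters, a replicate block and libraries left out.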

Additional observations from a re-analysis of the deposited data

Results flagged for a closer look

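In 3 of 64 sets of 5 libraries (32 members in each group) 1 library lay far from the other 4, by the gap to its nearest neighbour over the whole range (Dixon, above 0.71). Chance flags about 1 in 20 such sets. Leukaemia replicate 1 had 7111 normalised reads of Mcl1, where the other 4 lay between 5844 and 6163. It also had 5703 of Xiap, where the others lay between 4254 and 4596. Both were still below every myeloid library. This library was also the highest of its group in monocyte markers (76646 against 40821 to 52972 summed normalised reads), in Itgam (13908) and in Ptprc (17166), and their part in these values was not tested. Myeloid replicate 1 had 624 normalised reads of Bbc3, where the others lay between 343 and 413.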

How the results depend on the processing

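The tested members kept direction and call with voom, with no filter (where Bcl2l14, Bcl2l15 and Endog passed too) and with the replicate block, as did the 24 left by the stricter filter. With the block 12 members passed as higher and 17 as lower, as without it. The numbers were shared by the groups, but deviations of same-numbered libraries correlated at between -0.02 (number 5) and 0.32, so they were not taken as pairs, and not every library correlated best with its own number. Scaled to the total of the table, passing genes at least 2-fold higher were 3531 and lower 1083, passing lower genes were 2260, members at least 2-fold higher were 10 and lower 4, and members lower were 10. There the log2 differences of Casp9 (0.14), Ripk1 (0.31), Bcl2l11 (0.18) and Apaf1 (0.083) were above 0, and after quantile normalisation those of Apaf1 (0.082) and Ripk1 (0.18). The pro-survival median was -0.48 after quantile normalisation, -0.26 scaled to the total and -0.99 with voom. The pro-death median was 0.33 scaled to the total and -0.036 with voom. The stricter filter left 2415 higher genes, 919 of at least 2-fold, and 3 members at least 2-fold higher, and no filter gave 2729 genes at least 2-fold higher, as other numbers of genes were tested. Leaving out single libraries gave 11 to 12 members higher and 16 to 17 lower (Casp8 lost its call as reported above), 4 to 6 at least 2-fold higher and 8 at least 2-fold lower, and moved no ratio of paired members beyond its spread. The cause of the differences between scalings was not tested.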
